A study of Mus musculus with 4 samples.

Results

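Histone genes were compared in mouse kidney after cisplatin and after saline. They were taken from the deposited count table as protein-coding rows whose symbol starts with Hist1h, Hist2h, Hist3h or Hist4h, together with 8 named variant genes, H2afx, H2afz, H2afy, H2afv, H2afj, H1f0, H3f3a and H3f3b. The rule found 73 genes among 29190 rows, 65 of them clustered histone genes and 8 histone variant genes. Of the clustered genes, 6 encode linker histone H1, 17 encode H2A, 18 encode H2B, 11 encode H3 and 13 encode H4. The annotated chromosomes are 13 for the 53 Hist1 genes, 3 for the 9 Hist2 genes, 11 for the 2 Hist3 genes and 6 for Hist4h4.

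The cisplatin group was renal tissue of male C57 mice, 8 weeks old, that had been injected with cisplatin at 30 mg/kg body weight, and the saline group was tissue of such mice injected with physiological saline. There were 2 libraries in each group, which the series' design calls biological replicates. The protocol divides 18 mice into 3 groups and gives 24 h or 48 h between injection and killing. The sources used here do not say which interval the cisplatin libraries stand for or whether tissue of several mice was pooled. P-values therefore set differences against the spread between these libraries, estimated partly from all tested genes together. Cisplatin, a platinum compound used against tumours, forms crosslinks in DNA and is toxic to the kidney tubule. RNA was depleted of ribosomal RNA rather than selected for poly(A) tails, which leaves transcripts without a tail in the library.

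Histones are the proteins around which DNA is wound. The clustered genes are mostly made during DNA replication, and their messages end in a conserved stem-loop, bound by the protein SLBP, in place of a poly(A) tail. The variant genes lie outside the clusters, give mostly polyadenylated messages, spliced in several cases, and are made throughout the cell cycle and in cells that do not divide. Some clustered genes are also known to give polyadenylated transcripts in differentiated cells.

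The stem-loop is shown because it is the element that defines the clustered genes as a class. In GENCODE M21 transcripts, the pattern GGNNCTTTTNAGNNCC on the sense strand was found in 40 clustered genes and in H2afx. Of 58797 protein-coding transcripts of mouse, 0.167% held the pattern anywhere. The following 6 examples are written as DNA, 5′ to 3′, with the 16 bases of the match in capitals and 5 bases on each side.
Hist1h1c: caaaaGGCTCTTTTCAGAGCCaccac
Hist1h2ac: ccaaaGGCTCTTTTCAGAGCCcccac
Hist2h2ac: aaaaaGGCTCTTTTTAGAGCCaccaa
Hist1h4c: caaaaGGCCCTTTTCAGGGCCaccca
Hist1h4j: ctaaaGGTCCTTTTCAGGACCaccac
H2afx: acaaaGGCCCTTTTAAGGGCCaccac
The stem differed by family. It began with GGCT in 29 of the 30 matched genes outside the H4 family, and H2afx, with GGCC, was the exception. Among the 11 matched H4 genes it began with GGCC in 9 and with GGTC in 2, and in none with GGCT. The commonest form, with a C in the loop position before AG, was shared by 22 genes of the H1, H2A, H2B and H3 families.

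Library totals were 20662475 and 23150274 counts after cisplatin, against 21483564 and 27122403 after saline. Levels are given as CPM, the count relative to a library size after TMM scaling, the trimmed mean of M values. A gene was called when its adjusted p in edgeR's quasi-likelihood test with Benjamini-Hochberg adjustment was under 0.05. Of 17419 tested genes, 12820 were called, so most of the transcriptome differed between the groups. The median log2 fold change of all tested genes was 0.04, and it became 0.41 with library size alone and 0.16 with upper-quartile scaling. Directions of small differences depend on that choice. The filter on low counts passed 54 of the 73 histone genes, 46 clustered and 8 variant.

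The histone genes moved in both directions. Of the 46 tested clustered genes, 15 were higher after cisplatin, 9 were lower and 22 did not pass the test, and 52.2% were called against 73.6% of all tested genes. In the 2 directions, 37.2% of all tested genes were called higher and 36.4% lower. The tested clustered genes had a median log2 fold change of 0.32. Of the 8 variants, 2 were higher and 4 lower, and the median was -0.13. Cisplatin values lay wholly above or below saline values in 34 of the 46 clustered genes and in 7 of the 8 variants, against 86.3% of all tested genes. Called changes of at least 2-fold were seen upward in 10 clustered genes and downward in 3, where 19.2% of all tested genes passed upward and 16.1% downward.

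Markers of the cell types in the tissue differed as well. In whole tissue, fewer cells of a type and less RNA per cell cannot be told apart. The 9 kidney epithelium markers, with 6 lower and 3 higher, summed to 3967 and 3862 CPM after cisplatin, against 16400 and 16798 CPM after saline. Of 11 tested leukocyte markers 8 were higher and 1 lower, and the 15 in the list summed to 232 and 247 CPM, against 91.0 and 99.04 CPM, with a log2 fold change of 4.33 for S100a9 of neutrophils. The macrophage markers were divided, with Cd68 higher at 5.43, Adgre1 higher at 0.57 and Csf1r lower at -0.28, the 1 leukocyte marker that fell. The 3 erythroid markers were lower. As shares, 72.7% of the tested leukocyte markers were higher and 9.1% lower, and 33.3% of the epithelium markers were higher and 66.7% lower. Of all tested genes, 37.2% were higher and 36.4% lower. The median log2 fold change of the epithelium markers was -1.415. Ly6g, a neutrophil marker, was at 0 in both saline libraries. The part of these differences in the histone results was not tested.

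**Figure D1:**
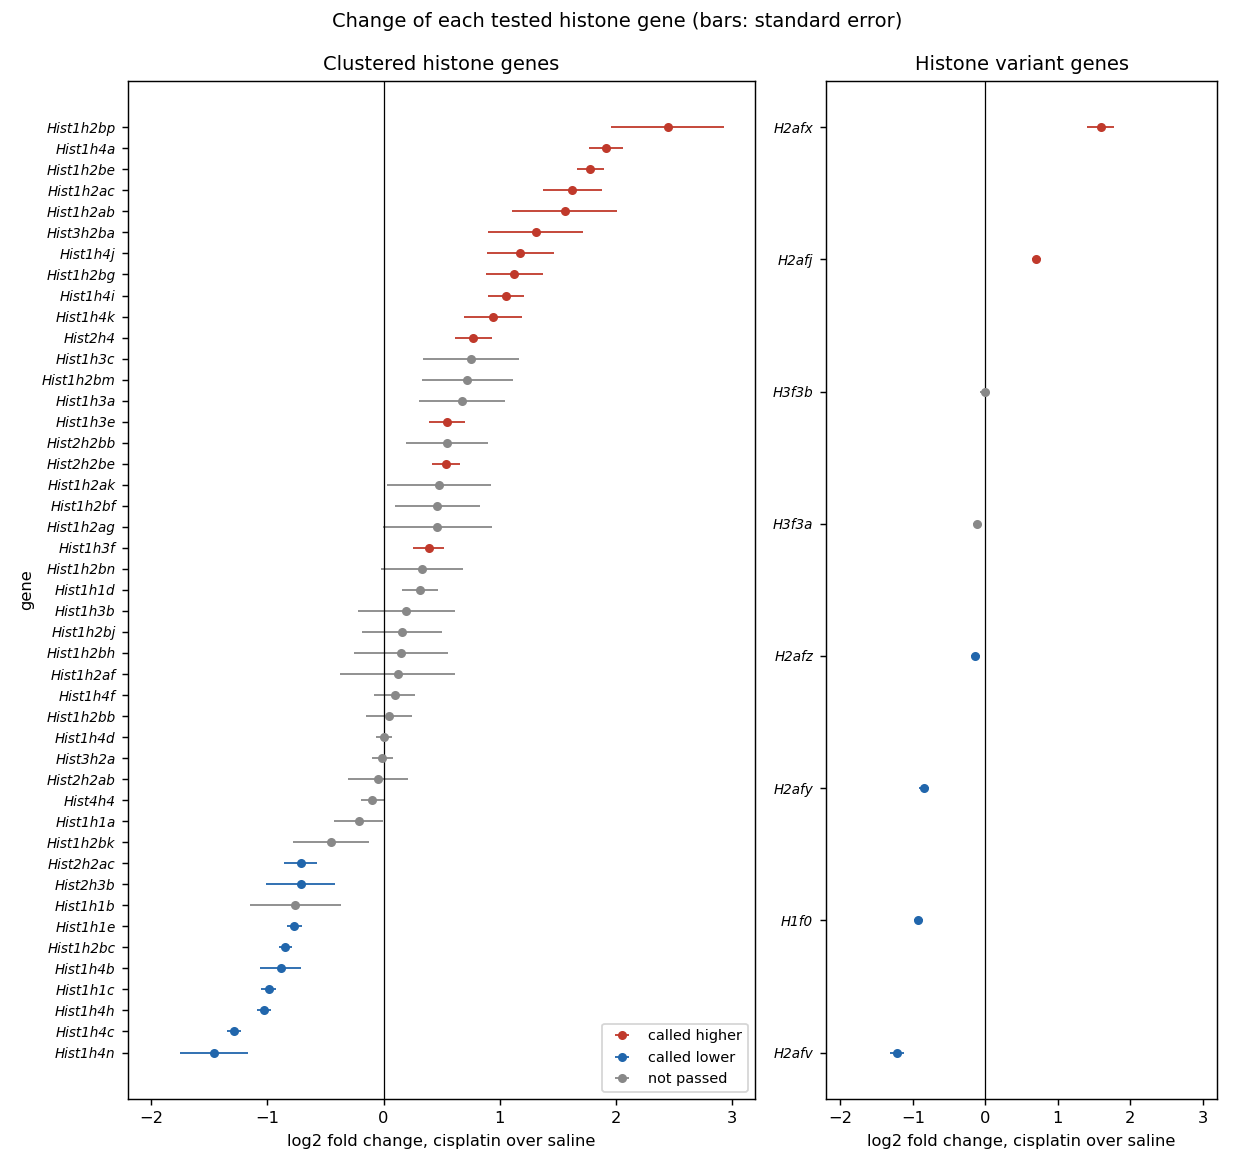
Log2 fold change of each tested histone gene, cisplatin over saline, for clustered genes (left) and variants (right), with bars for the standard error and colours for the edgeR call. Hist1h4m, which had no count in either saline library, is not drawn. The clustered genes with the largest fold changes are called higher, the abundant H1 and H4 genes Hist1h1c, Hist1h4h and Hist1h4c are near -1, and H2afx and H2afv are the outermost variants.

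Among the variants, H2afx showed the largest rise. It encodes H2A.X, which is phosphorylated around DNA breaks and whose message is known to exist with a stem-loop as well as with a poly(A) tail. H2afx (ENSMUSG00000049932.3; chromosome 9, 44334694 to 44336077, GRCm38) had 7.97 and 9.68 CPM in the cisplatin libraries, against 3.35 and 2.58 CPM in the saline libraries. Both cisplatin libraries lay well above both saline libraries. The log2 fold change was 1.59 ± 0.19 (SE; edgeR adjusted p = 2.27e-07). H2afj, which encodes H2A.J, a mammalian variant known to accumulate in senescent human fibroblasts, had 74.6 and 73.2 CPM after cisplatin, against 45.1 and 45.7 CPM after saline. Its groups were also separate, with a log2 fold change of 0.70 ± 0.06 (SE; edgeR adjusted p = 2.93e-09).

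The other H2A variants and the linker histone variant were lower. H2afv, 1 of the 2 genes for H2A.Z, a variant placed at promoters and enhancers, had 14.8 and 14.1 CPM after cisplatin, against 35.7 and 32.1 CPM after saline. The second gene, H2afz, was much more abundant and nearly level, with 120 and 109 CPM after cisplatin, against 123 and 128 CPM after saline. The H2afv groups were far apart, and the H2afz libraries did not overlap but lay close. The log2 fold change of H2afv was -1.22 ± 0.10 (SE; edgeR adjusted p = 5.98e-10). That of H2afz was -0.14 ± 0.06 (SE; edgeR adjusted p = 0.0493), a call that ended without cisplatin replicate 2 (edgeR adjusted p = 0.349) or without saline replicate 2 (edgeR adjusted p = 0.137), and that turned to 0.23, called higher, with library size alone. H2afz also shares 29.7% of its 100-base windows with the predicted gene Gm8203, so its reads are partly ambiguous.

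H2afy, the gene of macroH2A1, a large H2A variant found in repressed chromatin, had 39.1 and 41.1 CPM after cisplatin, against 69.7 and 74.5 CPM after saline. H1f0, which encodes the linker histone H1.0 that accumulates in cells that have stopped dividing, had 121 and 121 CPM after cisplatin, against 231 and 228 CPM after saline. In both genes each cisplatin library was below each saline library. The log2 fold changes were -0.85 ± 0.07 for H2afy (SE; edgeR adjusted p = 4.93e-10) and -0.92 ± 0.06 for H1f0 (SE; edgeR adjusted p = 1.68e-11).

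H3f3a and H3f3b encode the same protein, H3.3, the H3 that is deposited outside of replication. They were the 2 histone genes with the highest CPM and did not pass the test. H3f3a had 248 and 240 CPM after cisplatin, against 265 and 264 CPM after saline, and H3f3b had 256 and 271 CPM, against 268 and 264 CPM. The cisplatin values of H3f3b enclosed the saline values, and those of H3f3a lay just below. The log2 fold changes were -0.12 ± 0.06 and -0.01 ± 0.06 (SE; edgeR adjusted p = 0.0793 and 0.864), and with library size alone both turned upward and were called, at 0.25 for H3f3a and 0.35 for H3f3b.

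**Figure D2:**
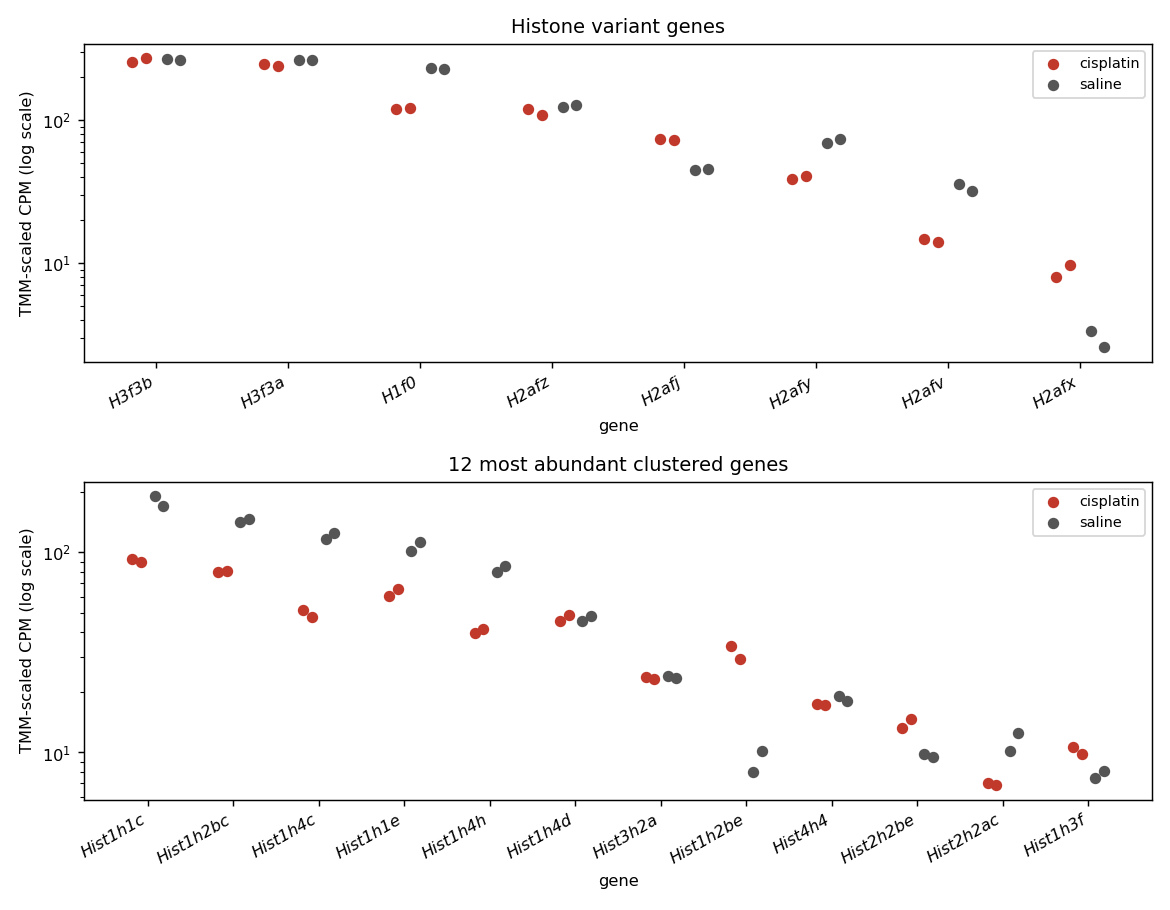
TMM-scaled CPM (log scale) of each library, cisplatin left of saline, for the 8 variants (top) and the 12 clustered genes with the highest mean CPM (bottom). H2afx and H2afj are higher after cisplatin while H1f0, H2afy and H2afv are lower, and among the clustered genes the 5 lowered ones Hist1h1c, Hist1h2bc, Hist1h4c, Hist1h1e and Hist1h4h are at the abundant end.

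Among the most abundant clustered genes, falls prevailed. Of the 6 with the highest mean CPM, 5 were lower and 1, Hist1h4d, did not pass. Falls also prevailed among all 5851 tested genes with a mean of 30 CPM or more, of which 53.8% were called lower and 31.6% higher. Hist1h1c, which encodes the linker histone H1.2, had 92.995 and 89.3 CPM after cisplatin, against 191 and 171 CPM after saline. Hist1h1e, which encodes H1.4, had 60.4 and 65.8 CPM, against 102 and 113 CPM. For both H1 genes the cisplatin libraries were well below the saline libraries. Log2 fold changes were -0.99 ± 0.06 for Hist1h1c (SE; edgeR adjusted p = 2.67e-11) and -0.77 ± 0.06 for Hist1h1e (SE; edgeR adjusted p = 9.12e-10). The annotated span of Hist1h1e (chromosome 13, 23620629 to 23622558, minus strand, GRCm38) overlaps that of Hist1h2be on the same strand, and 21.7% of its 100-base windows are also in Hist1h2be transcripts.

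Core histone genes fell by similar amounts. Hist1h4c (ENSMUSG00000060678.4; chromosome 13, 23697635 to 23698454, minus strand), 1 of the H4 genes, had 51.7 and 47.6 CPM after cisplatin, against 117 and 125 CPM after saline. Hist1h4h, also an H4 gene, had 39.8 and 41.5 CPM, against 80.0 and 85.8 CPM. Hist1h2bc, an H2B gene of 2 annotated exons, had 80.1 and 80.4 CPM, against 142 and 147 CPM. In each of these genes the 2 groups were widely separated and the libraries of a group lay close together. Fold changes on the log2 scale were -1.29 ± 0.06 for Hist1h4c (SE; edgeR adjusted p = 1.15e-13), -1.03 ± 0.06 for Hist1h4h (SE; edgeR adjusted p = 1.40e-11) and -0.85 ± 0.06 for Hist1h2bc (SE; edgeR adjusted p = 4.34e-11). With the exception of Hist2h3b, Hist2h2ac and H2afz, the falling histone genes kept their call under each alternative in which they were tested.

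Hist1h4d, also an H4 gene, did not pass the test. It had 45.5 and 48.6 CPM after cisplatin, against 45.7 and 48.2 CPM after saline, and the groups overlapped. Its log2 fold change was 0.00 ± 0.07 (SE; edgeR adjusted p = 0.975), and 0.37, called higher, with library size alone. Hist3h2a, an H2A gene, and Hist4h4 were likewise near level, at 24.0 and 23.3 CPM, against 24.2 and 23.4 CPM, for Hist3h2a and at 17.4 and 17.3 CPM, against 19.0 and 18.03 CPM, for Hist4h4. The log2 fold changes of -0.01 for Hist3h2a and -0.10 for Hist4h4 did not pass, and with library size alone they turned to 0.35 and 0.27 and were called higher. Hist3h2a overlaps Trim17 on its own strand.

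Levels were compared between genes in FPKM, the deposited values scaled by gene length and library, whose gene lengths the sources used here do not give. On this scale Hist1h4c had 91.4 and 82.8 FPKM after cisplatin and 163 and 191 FPKM after saline. Hist1h2bc had 76.1 and 75.0 FPKM after cisplatin and 105 and 121 FPKM after saline. Hist1h4h had 58.8 and 60.2 FPKM after cisplatin and 92.6 and 109 FPKM after saline. These 3 genes had the highest FPKM of the histone genes after saline. Hist1h4d, with 80.9 and 85.0 FPKM after cisplatin and 63.6 and 73.9 FPKM after saline, thus reached the level of Hist1h4c in the cisplatin libraries, whereas after saline Hist1h4c was more than 2-fold above it. The H3.3 gene H3f3b had 71.2 and 74.0 FPKM after cisplatin and 58.3 and 63.2 FPKM after saline, and was thus near Hist1h4d per length.

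The 15 clustered genes that rose all had a mean under 30 CPM. Of all 11568 tested genes under that level, 40.1% were called higher and 27.6% lower. Hist1h2be, an H2B gene, had 34.1 and 29.3 CPM after cisplatin, against 8.01 and 10.2 CPM after saline. Hist1h4a, an H4 gene, had 14.2 and 14.1 CPM, against 3.30 and 4.10 CPM. Hist1h2ac, an H2A gene, had 3.54 and 4.51 CPM, against 1.24 and 1.35 CPM. Every cisplatin library of these genes was at least 2-fold above every saline library. On the log2 scale the changes were 1.78 ± 0.12 for Hist1h2be (SE; edgeR adjusted p = 4.98e-11), 1.92 ± 0.15 for Hist1h4a (SE; edgeR adjusted p = 4.92e-10) and 1.63 ± 0.26 for Hist1h2ac (SE; edgeR adjusted p = 1.13e-05). The annotated Hist1h2be span, from 23583670 to 23621124 on chromosome 13, overlaps Gm11398 and Hist1h1e on the same strand. Hist1h1e moved the opposite way.

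Further rises were seen in Hist2h2be, an H2B gene with 13.3 and 14.7 CPM after cisplatin, against 9.79 and 9.51 CPM after saline (log2 fold change 0.54), and in the H4 genes Hist1h4i (1.06), Hist1h4j (1.18), Hist1h4k (0.94) and Hist2h4 (0.77). Hist1h2bg (1.13) and Hist1h2bp (2.45), both H2B genes, also rose. The 2 called H3 genes that rose, Hist1h3e (0.55) and Hist1h3f (0.39), lost the edgeR call when a library was left out. Without cisplatin replicate 2 the edgeR adjusted p of Hist1h3e was 0.0746. For Hist1h3f it was 0.0839 without cisplatin replicate 1 and 0.0752 without saline replicate 1. Hist1h2ab (1.56) and Hist3h2ba (1.31), with means near 1 CPM, also depended on a library, with edgeR adjusted p = 0.118 and 0.143 without cisplatin replicate 2. For Hist3h2ba it was 0.0575 without saline replicate 2.

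The scarcer falls were Hist1h4b, an H4 gene, Hist2h2ac, an H2A gene, Hist2h3b, an H3 gene, and Hist1h4n, an H4 gene. Hist1h4b had 3.29 and 3.55 CPM after cisplatin, against 6.44 and 6.23 CPM after saline (log2 fold change -0.89). Hist2h2ac had 7.04 and 6.86 CPM, against 10.2 and 12.5 CPM (log2 fold change -0.71). Neither gene's groups overlapped. Hist2h3b, at -0.71, did not keep its call without cisplatin replicate 2 (edgeR adjusted p = 0.263) or without saline replicate 2 (edgeR adjusted p = 0.129). It shares 77.1% of its windows with other genes.

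**Figure D3:**
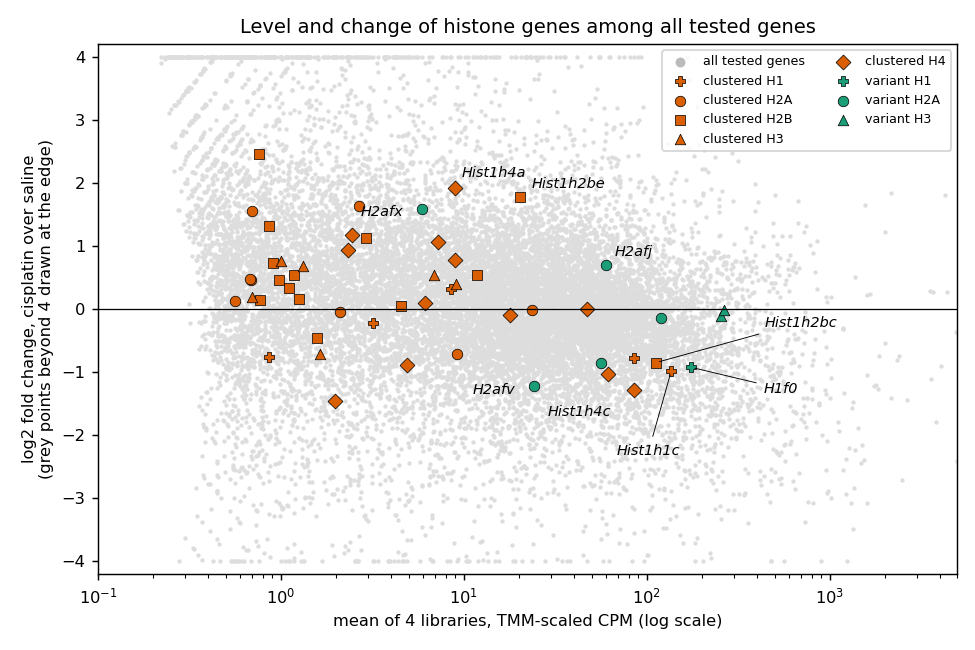
Log2 fold change, cisplatin over saline, against the mean TMM-scaled CPM of the 4 libraries (log scale) for all tested genes (grey) and the histone genes (symbols by family, orange for clustered and green for variant). Hist1h4m is not drawn, and grey points beyond 4 are at the edge. The 5 clustered genes with the highest means lie below 0, while 30 of the 40 tested clustered genes under 30 CPM have a fold change above 0.

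Of the 12 clustered genes with the highest mean CPM, 3 were higher and 6 lower, with a median log2 fold change of -0.41. Of the 34 tested genes below them, 12 were higher and 3 lower, with a median of 0.47. All tested genes also differed by level. Of 5851 genes with a mean of 30 CPM or more, 31.6% were called higher and 53.8% lower, with a median log2 fold change of -0.23. Of 11568 genes under 30 CPM, 40.1% were called higher and 27.6% lower, with a median of 0.23. Against these shares, 0 of the 6 clustered genes at 30 CPM or more were higher and 5 lower, and of the 40 under 30 CPM 15 were higher and 4 lower. The contrast by level thus had the same direction over all tested genes. In summed CPM, the 6 most abundant clustered genes summed to 370 and 373 CPM after cisplatin, against 678 and 690 CPM after saline, a log2 ratio of -0.88. The other 59 clustered genes summed to 220 and 215 CPM after cisplatin, against 156 and 161 CPM after saline, a log2 ratio of 0.46. With library size alone these ratios were -0.51 and 0.82, and with FPKM -0.59 and 0.66, so the opposite signs did not depend on the scaling.

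All 65 clustered genes together summed to 591 and 589 CPM after cisplatin, against 834 and 851 CPM after saline. The log2 ratio was -0.52, and -0.15 with library size alone. The 8 variants summed to 881 and 879 CPM after cisplatin, against 1040 and 1039 CPM after saline, a log2 ratio of -0.24 that turned to 0.13 with library size alone and to 0.04 in FPKM. A share within each library does not depend on the scaling. Clustered genes gave 40.1% (exact binomial 95% interval 39.6 to 40.6) and 40.1% (39.6 to 40.6) of the histone counts in the cisplatin libraries, against 44.5% (44.0 to 45.0) and 45.0% (44.6 to 45.5) in the saline libraries. The intervals cover counting error only. With 2 libraries a group, an exact permutation test cannot pass 0.05, so the share was not tested.

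By family, the clustered H1 genes summed to 168 and 167 CPM after cisplatin, against 305 and 296 CPM after saline, a log2 ratio of -0.85. Among the 5 tested H1 genes 2 were lower and none higher. The H4 genes summed to 208 and 210 CPM, against 296 and 310 CPM, a ratio of -0.53 made up of 6 genes called higher and 4 called lower. H1 and H4 stayed lower with library size alone, at -0.48 and -0.17. The H2B genes summed to 148 and 144 CPM, against 173 and 183 CPM, a ratio of -0.29 that turned to 0.08 with library size alone, while 5 H2B genes were called higher and 1, Hist1h2bc, lower. The H2A genes summed to 41.5 and 42.3 CPM, against 40.9 and 42.8 CPM, and their ratio was 0.00, or 0.37 with library size alone. The H3 genes summed to 25.4 and 24.9 CPM, against 19.4 and 19.1 CPM. Their ratio was 0.39, or 0.75 with library size alone, with 2 called higher and 1 lower. Of the 13 tested H4 genes 76.9% were called, near the 73.6% of all tested genes. The called share was below that level in the H1, H2A, H2B and H3 families, with 37.5% for H2A and 42.9% for H2B. Of all tested genes, 37.2% were called higher and 36.4% lower. Differences between the families were not tested.

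**Figure D4:**
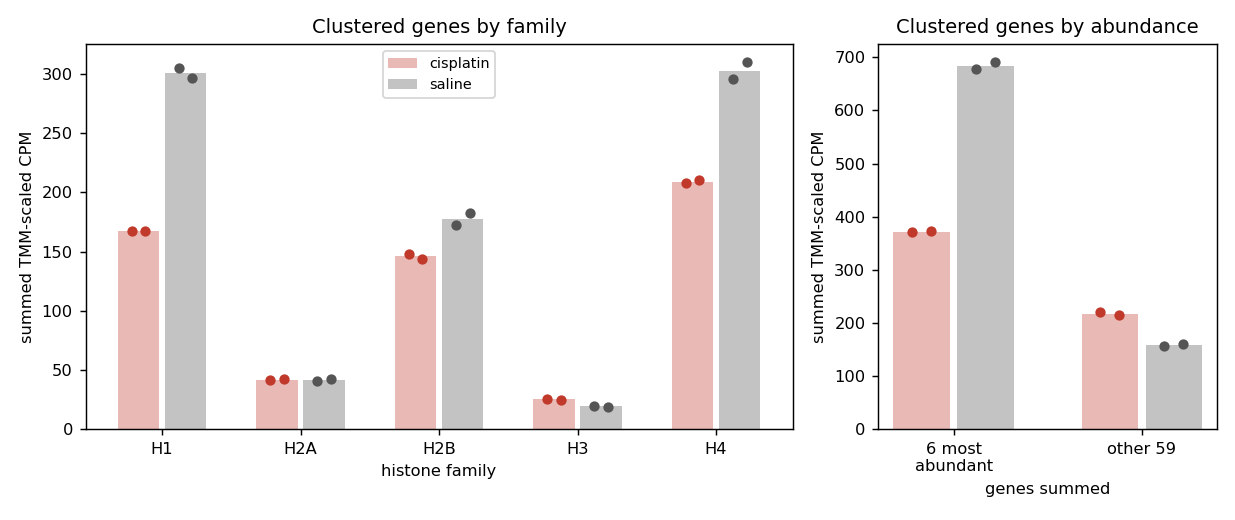
Summed TMM-scaled CPM of the clustered genes by histone family (left) and by abundance (right), with cisplatin left of saline, bars for the mean of 2 libraries and points for each library. H1 and H4 sums are lower after cisplatin, and the 6 most abundant genes and the other 59 differ in opposite directions.

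H2A and H2B genes often lie head to head and share the stretch between their starts. In GENCODE M21 there were 10 such pairs among the histone genes with starts at most 500 bases apart. Both genes were tested in 4 pairs and both were called in 2, each time in opposite directions. Hist1h2ac was higher at 1.63 while Hist1h2bc, 251 bases away, was lower at -0.85. Hist2h2ac was lower at -0.71 while Hist2h2be, 239 bases away, was higher at 0.54. The call of Hist2h2ac ended with limma on log2 FPKM, at -0.43 (limma adjusted p = 0.127) with a pseudocount of 0.1 and at -0.39 (limma adjusted p = 0.124) with a pseudocount of 1. In the first pair it was the H2A gene that rose, and in the second the H2B gene. In the other tested pairs neither gene was called. Hist1h2ak and Hist1h2bn were at 0.48 and 0.33, and Hist1h2ag and Hist1h2bj at 0.46 and 0.16. Of all tested genes, 37.2% were called higher and 36.4% lower. Whether such pairs differ in direction more often than other genes was not tested. The 2 stretches are shown because each lies between genes called in opposite directions in edgeR. They are the 250 bases before the RefSeq start of the H2A gene, on its strand, and reach the annotated start of the H2B partner. Capitals mark, on either strand, the CCAAT box, the letters TATAAA of a TATA box and the octamer, spelled ATTTGCAT.
Hist1h2ac, chr13:23683960-23684209, minus strand, GRCm38.p6: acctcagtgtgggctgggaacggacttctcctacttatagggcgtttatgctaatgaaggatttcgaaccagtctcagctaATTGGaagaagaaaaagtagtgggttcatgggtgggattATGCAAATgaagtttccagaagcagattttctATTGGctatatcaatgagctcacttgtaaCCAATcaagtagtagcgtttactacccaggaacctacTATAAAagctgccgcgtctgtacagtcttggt
Hist2h2ac, chr3:96220881-96221130, minus strand, GRCm38.p6: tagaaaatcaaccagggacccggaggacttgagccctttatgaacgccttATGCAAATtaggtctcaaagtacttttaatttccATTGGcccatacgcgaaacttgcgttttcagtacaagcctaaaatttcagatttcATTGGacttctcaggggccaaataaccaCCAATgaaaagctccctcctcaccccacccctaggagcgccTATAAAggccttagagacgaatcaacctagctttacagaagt
Both stretches hold the octamer, a TATAAA near the H2A start and CCAAT on both strands.

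RefSeq promoters of 300 bases, 250 before and 50 after the start, matched 56 clustered genes and 7 variants. CCAAT on either strand was in 47 of the 56 clustered promoters, against 37.4% of 32851 RefSeq promoters. It was in every matched H1, H2A, H2B and H3 promoter but in 3 of the 12 matched H4 promoters. TATAAA was in 34 of the 56, against 13.6% of all promoters. The octamer was in 6 H2A and 5 H2B promoters and in no other clustered promoter, against 1.74% of all promoters. Among called clustered genes with a promoter entry, TATAAA was in 10 of 12 that rose and in 3 of 8 that fell. CCAAT was in 8 of 12 and 5 of 8. Of 19 tested clustered genes that were not called, 12 held TATAAA and 17 held CCAAT. A match counted anywhere in the 300 bases on either strand, and differences between these groups were not tested. These are matches of letters and were not tested as binding sites.

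Annotated transcripts of the clustered genes differ in where they end. In 20 genes the GENCODE M21 transcript ends within 150 bases of the stem-loop match and in 20 it runs further. In 23 it holds no match and for 2 no transcript was found. Some transcripts without a match are no longer than a coding sequence, such as Hist1h4k with 312 bases, Hist1h2bl with 381 and Hist1h3h with 411. No match therefore does not show that a gene lacks the stem-loop. Among the 16 tested genes whose transcript runs past the stem-loop, 9 were higher, 3 were lower and 4 failed the test, so that 75.0% were called, near the 73.6% of all tested genes, and the median log2 fold change was 0.47. Among the 16 tested genes whose transcript ends there, 3 were higher, 4 were lower and 9 did not pass, so that 43.8% were called, with a median of 0.18. Of the 12 tested genes with no match, 3 were higher and 2 lower, or 41.7% called. In M21, Hist1h2be, Hist1h2ac and Hist1h4i run past it and rose, but so do Hist1h4c, Hist1h1c and Hist1h1e, which fell. The difference between these classes was not tested. For Hist1h2ac, Hist1h4c and Hist1h1e the deposited FPKM, set against the counts, imply gene models shorter than these transcripts. In cisplatin replicate 1, Hist1h2ac had 84 counts and 5.2 FPKM, and Hist1h2bg had 110 counts and 6.8 FPKM. That is nearly the same FPKM per count, though the M21 transcripts have 2482 and 618 bases. The classes thus describe M21 transcripts and may not hold for the authors' gene models.

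**Figure D5:**
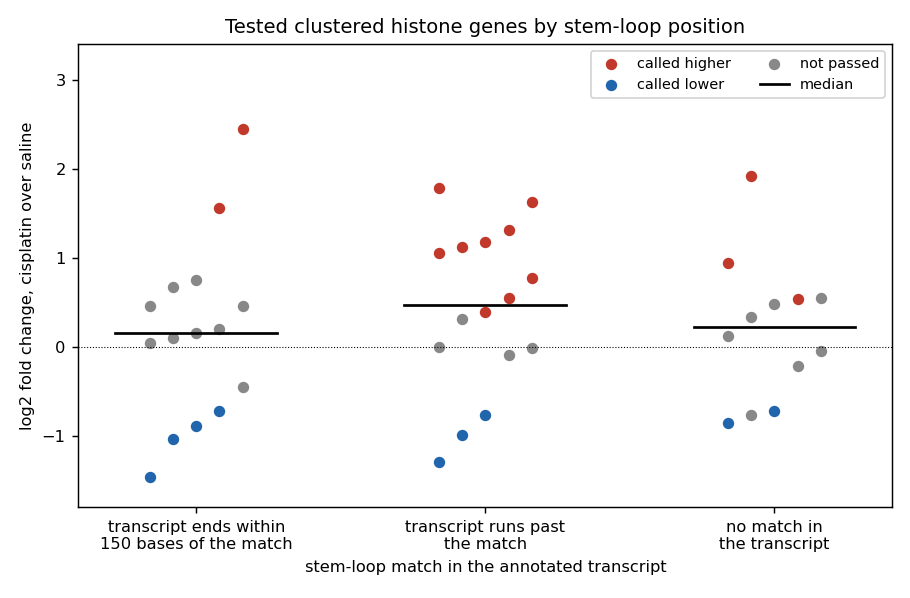
Log2 fold change, cisplatin over saline, of the tested clustered genes by the position of the stem-loop match in the GENCODE M21 transcript, coloured by edgeR call, with lines at the median of the drawn genes. Hist1h4m, which ends at the stem-loop, and 2 genes without a transcript are not drawn. Called genes of both directions are found in each class.

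Hist1h4m and Hist1h4n are nearly identical H4 genes. Hist1h4m had 47 and 53 counts after cisplatin and none in either saline library, which is at least 28.8-fold higher when 3 counts are set as the floor over the saline group. Hist1h4n had 0.801 and 1.27 CPM after cisplatin, against 3.19 and 2.62 CPM after saline, a log2 fold change of -1.46 ± 0.30 (SE; edgeR adjusted p = 0.000194). The genes thus moved in opposite directions. They share 88.1% and 80.7% of their 100-base windows with other genes, and their summed counts were 66 and 86 after cisplatin, against 59 and 64 after saline. The log2 fold change of the sum was 0.08 ± 0.23 (SE; edgeR adjusted p = 0.753), and the pair counted as 1 gene did not pass the test.

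Such sharing was common, since the families are made of near copies. The median share of 100-base windows held in common with another gene was 34.7% for clustered genes, and the sources used here do not say how such reads were counted. Restricting the clustered genes to the 20 that share under 20% of their windows left 18 tested, of which 7 were higher and 3 lower, with a median log2 fold change of 0.21. Of these 18, 55.6% were called, against 73.6% of all tested genes, of which 37.2% were higher and 36.4% lower. Hist1h4c and Hist1h1c among the falls and Hist1h2be and Hist1h2ac among the rises were in that set. These shares are of whole M21 transcripts. For Hist1h4c and Hist1h2ac the deposited FPKM imply shorter gene models, in which the share may be larger and was not computed. Hist1h4h, Hist1h2bc and Hist1h4a, which share 38.5%, 25.4% and 31.8% of their windows, were outside the set under 20%.

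The filter left 19 clustered genes untested, with at most 15 counts in any library. They were the 9 H2A genes Hist1h2ad, Hist1h2ae, Hist1h2ah, Hist1h2ai, Hist1h2al, Hist1h2an, Hist1h2ap, Hist2h2aa1 and Hist2h2aa2, the 4 H2B genes Hist1h2ba, Hist1h2bl, Hist1h2bq and Hist1h2br, the 5 H3 genes Hist1h3d, Hist1h3g, Hist1h3h, Hist1h3i and Hist2h3c2, and Hist1h1t, which encodes the testis H1. Hist1h2bq had no count in any library. In the fit without a filter, 18 of the 19 had an adjusted p and 1, Hist2h2aa2, was called higher (edgeR adjusted p = 0.00690). It had 3 and 11 counts after cisplatin and none in either saline library, and 100% of its 100-base windows are also in Hist2h2aa1. The other tested clustered genes that did not pass had mean levels of 0.564 to 8.53 CPM. Among them Hist1h1d, which encodes H1.3, was called higher without cisplatin replicate 2 (log2 fold change 0.52, edgeR adjusted p = 0.00969), and so was Hist1h3c, an H3 gene (1.21, edgeR adjusted p = 0.0324). Hist1h3a, an H3 gene, was called higher without saline replicate 1 (1.26, edgeR adjusted p = 0.0103).

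Factors that make and destroy histone messages were called in both directions. Of 32 such genes, 13 were higher, 9 were lower and 10 failed the test. Their called share was 68.8%, with 40.6% higher and 28.1% lower, near the 73.6%, 37.2% and 36.4% of all tested genes, and their median log2 fold change was 0.12. Slbp, the stem-loop binding protein, had 54.2 and 52.1 CPM after cisplatin, against 28.4 and 28.2 CPM after saline, a log2 fold change of 0.91. Hinfp, an activator of H4 genes, had 18.4 and 16.8 CPM, against 6.60 and 7.46 CPM (1.31). Cisplatin and saline libraries were clearly apart in both. Npat (0.21), the coactivator of clustered histone genes, and Casp8ap2 (0.39), a processing factor, rose by less, and the call of Npat ended when cisplatin replicate 1 (edgeR adjusted p = 0.0659), cisplatin replicate 2 (0.123) or saline replicate 1 (0.168) was left out.

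Of the U7 particle, which cuts histone messages after the stem-loop, Lsm10 was lower, at -0.51, and Lsm11 was 0.27 and did not pass. The call of Lsm10 ended without cisplatin replicate 2 (edgeR adjusted p = 0.196) or saline replicate 2 (edgeR adjusted p = 0.116). Zfp473, a cofactor of that cut, was 0.81 and did not pass. Factors that degrade histone messages were divided. Upf1, a helicase needed for their decay, had 69.2 and 73.5 CPM after cisplatin, against 30.4 and 35.6 CPM after saline (1.11), and Eri1, an exonuclease that trims the stem-loop, rose by 0.51. Dis3l2, an exonuclease that degrades uridylated RNA, had 9.19 and 9.33 CPM, against 31.2 and 34.3 CPM (-1.82). With library size alone, 24 of the 32 genes were called higher and 2 lower.

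Genes of S phase and mitosis, among which clustered histone genes are usually expressed, did not move as 1 group. Of 54 tested, 22 were higher, 9 were lower and 23 failed the test. As shares, 40.7% were higher and 16.7% lower, against 37.2% and 36.4% of all tested genes, and the median log2 fold change was 0.41. Cdt1, a licensing factor, had 19.3 and 16.7 CPM after cisplatin, against 2.22 and 1.64 CPM after saline (3.24). Ccne2, cyclin E2, had 19.99 and 19.2 CPM, against 2.22 and 2.66 CPM (2.99). Pcna, the replication clamp that also serves DNA repair, had 99.5 and 105 CPM, against 35.4 and 36.8 CPM (1.50). Mki67, the usual marker of cycling cells, was -0.04 and did not pass. Orc1 (1.90), Rrm2 (2.25) and Mcm5 (1.51) rose, while Mcm10 (-1.98), Tk1 (-1.12) and the mitotic cyclin Ccnb2 (-1.08) fell.

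Of 38 rows for histone chaperones and exchange factors, 22 were higher, 5 were lower and 11 failed the test. As shares, 57.9% were higher and 13.2% lower, against 37.2% and 36.4% of all tested genes, and the median log2 fold change was 0.26. Spty2d1, an H3-H4 chaperone, had 110 and 108 CPM after cisplatin, against 45.2 and 48.8 CPM after saline (1.21). Hjurp, the chaperone of centromeric H3, had 49.5 and 51.0 CPM, against 25.2 and 26.6 CPM (0.96). Ipo4, which imports H3-H4 dimers into the nucleus, had 51.9 and 56.3 CPM, against 28.7 and 27.6 CPM (0.94). Asf1b (1.73) and Chaf1b (1.34), which hand H3-H4 to replicating DNA, rose, and the H3.3 chaperones were divided, with Daxx (0.82) higher, Atrx (-0.56) lower and Hira (-0.22) not passing. For H2A.Z, Vps72 (0.95), a subunit of a complex that deposits it, rose, while Znhit1 (-0.46) and Yeats4 (-0.33), also subunits of depositing complexes, fell, and Anp32e, which removes it, had 39.6 and 38.6 CPM, against 64.8 and 62.7 CPM (-0.70).

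Histone genes outside the rule were few. Of 6 with a row, 2 were tested. H2afy2, which encodes macroH2A2, had 6.28 and 6.09 CPM after cisplatin, against 9.74 and 11.6 CPM after saline, and was lower at -0.79, as was its relative H2afy at -0.85. With limma on log2 FPKM, H2afy2 was not called, at -0.49 (limma adjusted p = 0.0907) with a pseudocount of 0.1 and at -0.36 (limma adjusted p = 0.0984) with a pseudocount of 1. Cenpa, the centromeric H3, had 1.14 and 1.85 CPM, against 1.08 and 0.492 CPM, and its call at 0.99 ended without cisplatin replicate 2 (edgeR adjusted p = 0.383) or without saline replicate 2 (edgeR adjusted p = 0.347).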

How the data were processed

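Tests used the raw counts per gene that the authors deposited for 29190 genes. The FPKM table, deposited by the authors for 29157 genes, served to compare levels between genes and as an alternative. Per the submitters' processing notes, the tools were bcl2fastq, TopHat2 and edgeR and the build was GRCm38, with no version given. How reads were counted, whether strand was used, what happened to multiply mapped reads and which annotation was used is not stated in the sources at hand.

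Counts were filtered with filterByExpr, scaled by TMM and tested with edgeR 4.0.16 (R 4.3.3; quasi-likelihood F test, 2 residual degrees of freedom) over 17419 genes, with Benjamini-Hochberg adjustment. The spread of each gene was moderated with that of all tested genes, so p-values do not rest on the 2 residual degrees of freedom alone. Standard errors follow from the fitted log2 value and its F statistic. The procedure was tested on simulated data. Alternatives used DESeq2 1.42.0, limma 3.58.1 on log2(FPKM + 0.1) and log2(FPKM + 1), other scalings and filters, a block for replicate number, and omission of each library in turn. Libraries of a group differed by more than sampling noise. A floor of 3 counts is 0.111 to 0.145 CPM before scaling, for counting error only.

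Members, gene lists and the rule for named genes were chosen with earlier results of these data known. The rule took the 8 variants, the 12 most abundant clustered genes, the 4 largest rises and falls among called clustered genes of at least 1 CPM without overlap, Hist1h1c, Hist1h2bc, Hist2h2be, Hist3h2a, Slbp, Lsm10, Lsm11, Casp8ap2, Npat, Zfp473, Eri1, and up to 4 tested genes per other list with the smallest p. A gene that the rule names is not reported here. Other genes were named after their values were seen. Transcripts and coordinates came from GENCODE M21 (GRCm38), where 71 of the 73 genes were found, 42 with the same version suffix. Promoter sequences came from RefSeq (GRCm38.p6).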

Additional observations from a re-analysis of the deposited data

How the results depend on the processing

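Of 30 called histone genes, 22 kept their call under every alternative in which they were tested, 6 lost it when a library was left out, and 12 uncalled ones gained a call with library size alone. With library size alone, 25 clustered genes and 5 variants were called higher, 7 of those ending at the stem-loop were higher, 4207 genes in all were lower, S phase and mitosis had 4 lower, histone mRNA factors had 24 higher and 2 lower, chaperones 2 lower and leukocyte markers 0 lower. The log2 fold changes of H2afz (0.23), H3f3a (0.25), H3f3b (0.35), Hist3h2a (0.35) and Hist4h4 (0.27) turned upward, the medians were 0.69 (clustered) and 0.24 (variants), and the summed ratios -0.15 (clustered) and 0.13 (variants). With upper-quartile scaling, the variant median was -0.0088, the summed ratios -0.40 (clustered) and -0.12 (variants), chaperones had 3 lower and leukocyte markers 0 lower. With limma on log2 FPKM at a pseudocount of 0.1 and 1, 3804 and 3784 genes were lower, with 3 and 2 lower in S phase and mitosis, 1 and 1 among histone mRNA factors, 1 and 1 among chaperones, and 0 among leukocyte markers and other histone genes, where none was higher either. H2afz was 0.13 at both, the variant medians were 0.14 and 0.14, and at 0.1 the clustered median was 0.58 and 6 genes ending at the stem-loop were higher. FPKM sums gave -0.30 (clustered) and 0.039 (variants). DESeq2 called 0 of the other histone genes higher. Genes with under 20% shared windows gave 7 higher and 3 lower. Without H3f3b the share of clustered counts differed by -3.24 percentage points, against -4.65 with it. Leaving out each library gave 0 to 2 other histone genes higher and 0 to 1 leukocyte markers lower. Same-numbered libraries did not deviate together (correlation -0.053), and with a replicate block 12653 genes were called, against 12820 without, with 15 clustered genes higher, 9 lower and 3 variants lower, H2afz having an edgeR adjusted p of 0.0501. The causes of these shifts were not tested. Depth limits the 19 genes that the filter left out.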

Other observations

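The count table also holds histone symbols outside the protein-coding class. A long noncoding row named Hist2h2bb had 200 and 214 counts after cisplatin, against 149 and 182 counts after saline, which is more than the protein-coding row of the same symbol, with 40 and 29 counts after cisplatin, against 17 and 24 counts after saline. The processed pseudogene Hist3h2bb-ps had 10 and 19 counts after cisplatin, against 6 and 10 counts after saline, and the pseudogene Hist1h2aj had none in any library.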
